A study of Caenorhabditis elegans with 16 samples.

Results

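Short-chain dehydrogenases/reductases (SDRs) are NAD(P)(H)-dependent oxidoreductases with a Rossmann fold and a catalytic tyrosine and lysine. They interconvert alcohols and carbonyls on steroids, retinoids, fatty acyl chains and sugars, and on carbonyl compounds that enter the body from outside. In *C. elegans* many carry the names dhs (short-chain dehydrogenase) or stdh (steroid dehydrogenase). The genes described here are all rows of the count table named dhs or stdh with a number, with *dhs-28*, the peroxisomal enzyme of ascaroside synthesis, left out. This gave 33 genes (29 dhs and 4 stdh) of 42048 rows in the table.

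Whole young adult worms were sequenced for RNA as 16 libraries in 4 groups, with 4 biological replicates a group: *syp-2::AID* with auxin, *syp-2::AID* without auxin, N2 with auxin and N2 without auxin. Auxin (indole-3-acetic acid) was given for 4 h at 4 mM in plates seeded with OP50 bacteria, and the untreated worms were on plates without it. *syp-2::AID* worms carry a degron on SYP-2, a central region protein of the synaptonemal complex, and are homozygous for a transgene (*ieSi38*) that makes the plant F-box protein TIR1 from the germline promoter of *sun-1*. N2 is the wild type and has neither, so the N2 libraries compare the plates in worms whose SYP-2 is not degraded. Each replicate was RNA of pooled worms, in which fewer cells of a type and less RNA per cell cannot be told apart. Whether the plates without auxin held its solvent is not given in the sources used here.

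Total counts per library were 14668136 to 16334961 in auxin-treated and 15753730 to 18741524 in untreated *syp-2::AID* worms, and 13964761 to 16537215 in auxin-treated and 14214414 to 16563325 in untreated N2 worms. Among the auxin-treated *syp-2::AID* libraries, replicates 3 and 4 differed from the remaining 14 libraries. In them, 18.9% and 19.03% of the counts fell on ribosomal protein genes (11.4% to 15.4% elsewhere) and 5.39% and 5.17% on vitellogenin genes (7.62% to 9.68% elsewhere). Across genes, the deviation of these libraries from the mean fell with exon length (Spearman's rho -0.548 and -0.625, against 0.050 to 0.285 elsewhere). For members whose call rests on these libraries, values are given with and without them, an alternative chosen with earlier results of the data known. Whole-worm identity was checked on marker lists. All 6 intestine, 6 germline, 4 oocyte, 4 body wall muscle and 4 neuron markers were detected in every library, whereas the 4 sperm markers summed to at most 1.55 CPM in any library, with *ssp-9* at 0 in all 16. Of 4 hypodermis markers, 2 to 4 were detected in all libraries of a group. Of 8 early embryo markers, 4 to 6 were, with *med-1* at 0 in all 16 libraries.

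Levels are given as CPM, counts relative to a library total that was scaled by TMM (trimmed mean of M-values), and between genes as CPM per kb of exon. The members spanned a wide range. In untreated N2 worms the highest was *dhs-25* at 157 ± 28.8 CPM per kb, followed by *dhs-22* at 110 ± 12.4, *dhs-6* at 58.7 ± 1.41, *dhs-1* at 41.4 ± 1.05 and *dhs-13* at 40.6 ± 1.13 CPM per kb (SD, n = 4 each). *dhs-6*, related to human HSDL2, lay above *dhs-1* in every library of that group, while *dhs-1* and *dhs-13* differed by less than their spread. The order of *dhs-25*, *dhs-22* and *dhs-6* was the same in all 4 groups. These genes made up 46.8% to 51.1% of the summed CPM per kb of all members in auxin-treated and 56.2% to 57.0% in untreated *syp-2::AID* worms, and 47.7% to 49.6% in auxin-treated and 50.0% to 55.1% in untreated N2 worms.

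**Figure D1:**
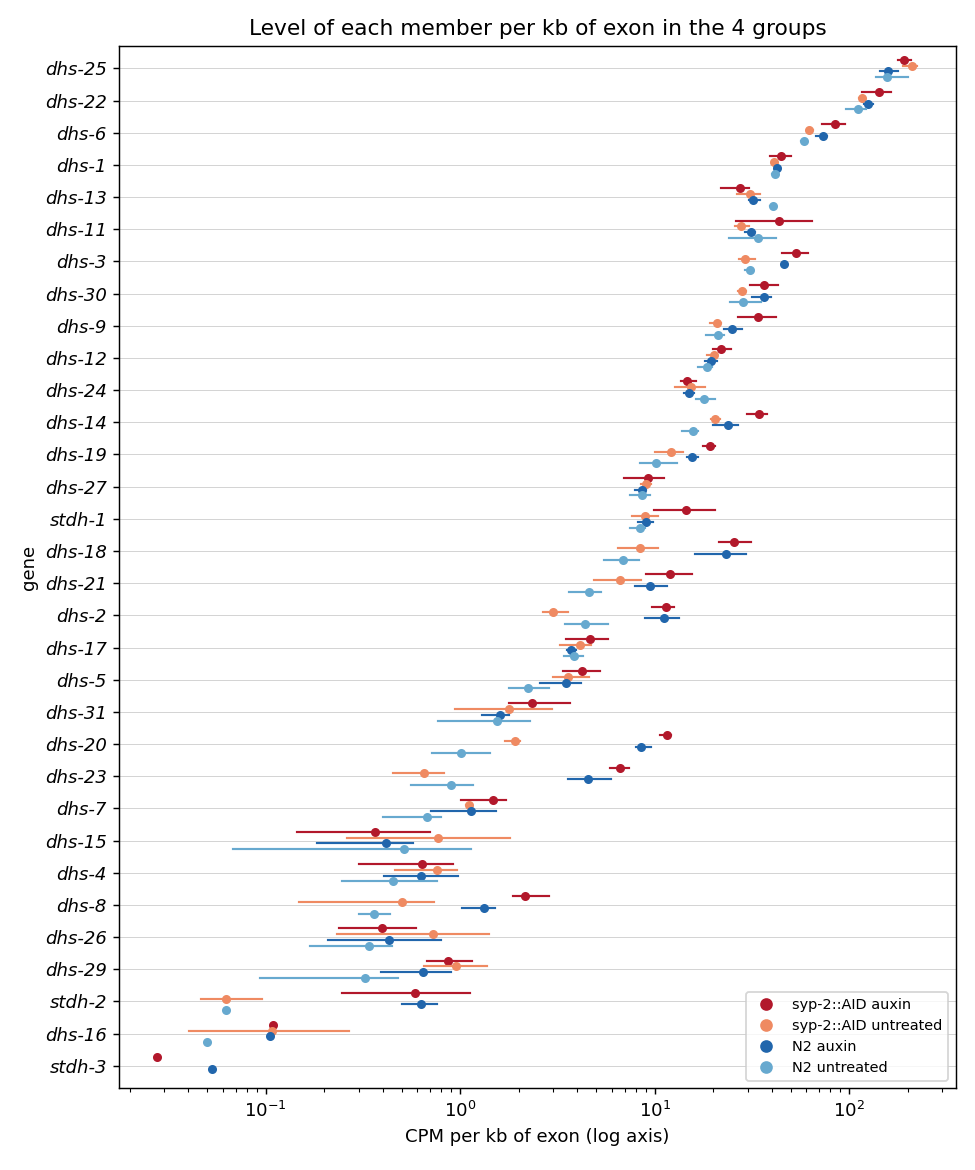
Level of 32 members in CPM per kb of exon (horizontal log axis), in order of the level in untreated N2 worms. Points are means of 4 libraries, lines run from the lowest to the highest library where all 4 are above 0, and means of 0 and *stdh-4*, at 0 in all 16 libraries, are not drawn. *dhs-25* is the highest in every group at 157 to 211 CPM per kb, and *dhs-20*, *dhs-23* and *dhs-8* are low without auxin and higher with it in both strains.

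Of the 33 members, 28 passed edgeR's filter on low counts (at least 4 libraries at about 0.63 CPM or more), among 11776 genes tested. *dhs-8* passed only through the auxin libraries (8 of 8, with 2 of 8 untreated), so its passing depends on the group in which it is high, and *dhs-26* reached this level in 2 auxin and 2 untreated libraries. The other 26 passed on the untreated libraries alone. *dhs-15*, *dhs-16*, *stdh-2*, *stdh-3* and *stdh-4* were not tested. Tests below are those of edgeR's quasi-likelihood fit over all 16 libraries as 4 groups, adjusted by the Benjamini and Hochberg method over all 11776 genes. The words rose and fell are kept for an adjusted p under 0.05. For single members CPM was also compared by exact permutation, two-sided, and 4 libraries against 4 cannot give a p under 0.0286.

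The first comparison asks what the auxin plates changed in *syp-2::AID* worms, where SYP-2 is degraded. Of the 28 members tested, 12 rose and none fell, and 16 did not pass (edgeR). By the same test 5.27% of all genes rose and 1.93% fell. The 12 were *dhs-23*, *dhs-20*, *dhs-8*, *dhs-2*, *dhs-18*, *dhs-3*, *dhs-21*, *dhs-14*, *stdh-1*, *dhs-9*, *dhs-19* and *dhs-6*, with rises of 1.36-fold (*dhs-6*) to 10.1-fold (*dhs-23*), and 5 of them rose by more than 2-fold. The median log2 fold change of the 28 was 0.40, against 0.03 over all genes tested. This median was lower without auxin-treated replicates 3 and 4. At an unadjusted p under 0.05 there were 15 members, all with a positive fold change. Without these replicates there were 12, with *stdh-2* among them, of 30 members tested. The share of all genes at this unadjusted threshold is not given here, so these counts have no background beside them. DESeq2 called 12 members as well and limma-voom 11, all upward, with 1345 and 868 genes called in all, against 848 by edgeR. Without the replicates 3 and 4 that stood apart 10 rose, of which 9 were among the 12, while 444 genes in all passed, against 848 with all libraries. The other was *stdh-2*, which in all libraries reached the filter's level in 3 auxin and 0 untreated ones, so its call is no independent addition.

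The second comparison asks what the same plates changed in N2 worms, which have no degron. Here 10 of the 28 rose, none fell and 18 did not pass (edgeR), while 3.99% of all genes rose and 1.44% fell. All 10 were also among the 12 of *syp-2::AID* worms: *dhs-20*, *dhs-23*, *dhs-8*, *dhs-18*, *dhs-2*, *dhs-21*, *dhs-19*, *dhs-14*, *dhs-3* and *dhs-6*. The rises ran from 1.25-fold (*dhs-6*) to 8.46-fold (*dhs-20*), and 6 were over 2-fold. The median log2 fold change of the 28 was 0.34, against 0.01 over all genes tested. At an unadjusted p under 0.05 there were 16 members, 2 of them, *dhs-13* and *dhs-24*, with a negative fold change. Here too the share of all genes at the unadjusted threshold is not given. DESeq2 called 10 members and limma-voom 9, all upward, with 917 and 568 genes called in all, against 640 by edgeR.

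The auxin comparisons of the 2 strains share no library. Across the 28 members their log2 fold changes had a Pearson's r of 0.844 and a Spearman's rho of 0.659, against 0.495 and 0.234 across all 11776 genes tested. These describe genes, which are not independent replicates, and the libraries were scaled together.

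**Figure D2:**
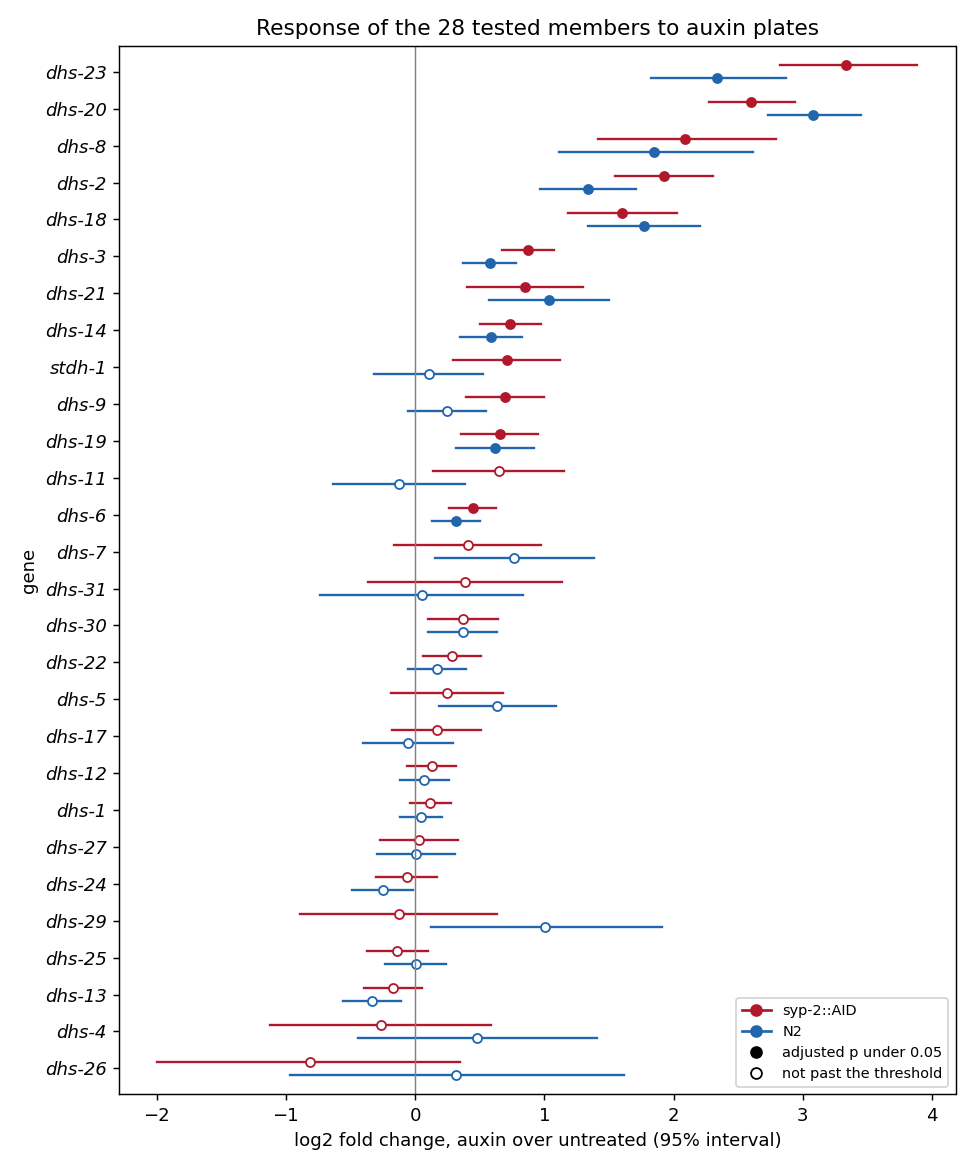
log2 fold change of the 28 tested members on auxin plates (horizontal axis, auxin over untreated) in *syp-2::AID* worms (upper, red) and N2 worms (lower, blue) of each pair, with 95% intervals from edgeR. Filled points passed at an adjusted p under 0.05: 12 members in *syp-2::AID* and 10 in N2 worms, all to the right of 0.

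*dhs-23* had the largest rise among the members in *syp-2::AID* worms. It was at 7.04, 5.66, 6.23 and 6.53 CPM in the auxin-treated libraries and at 0.788, 0.680, 0.433 and 0.599 CPM in the untreated ones, so every treated library was more than 5 CPM and every untreated one under 1 CPM. The log2 fold change was 3.34 (SE, the standard error, 0.25, 95% interval 2.82 to 3.89, adjusted p = 1.63e-07 by edgeR), the 30th largest of the 11776 genes tested. In N2 worms *dhs-23* was at 3.41, 5.68, 4.74 and 3.60 CPM on auxin plates and at 0.980, 0.538, 1.11 and 0.802 CPM without. The groups again did not overlap, and the log2 fold change was 2.34 (SE 0.25, adjusted p = 1.01e-05 by edgeR).

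*dhs-20* was the member with the largest rise in N2 worms. Auxin-treated N2 libraries had 11.7, 12.005, 13.97 and 12.2 CPM and untreated ones 1.05, 1.41, 1.33 and 2.07 CPM, and the log2 fold change was 3.08 (SE 0.17, 95% interval 2.73 to 3.45, adjusted p = 4.09e-09 by edgeR). This was also the 30th largest rise of the genes tested in that strain. In *syp-2::AID* worms it was at 17.7, 17.1, 15.5 and 17.3 CPM on auxin plates and at 2.48, 2.77, 2.97 and 2.87 CPM without, which is 2.60 as a log2 fold change (SE 0.16, adjusted p = 9.69e-09 by edgeR). The treated libraries were above the untreated ones in both strains with a wide gap. In the WBcel235 annotation *dhs-20* overlaps exons of F35B12.9 on the other strand and of *idpp-16*, which has no row of that name in the table. The strand setting of the counting is not given, so their reads cannot be told apart. F35B12.9 itself was at 4.72 and 4.77 CPM in auxin-treated and untreated *syp-2::AID* worms and at 3.77 and 3.31 CPM in auxin-treated and untreated N2 worms (means, n = 4 each), and it did not pass the test.

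*dhs-2* and *dhs-18* rose in both strains from intermediate levels. *dhs-2* was at 14.4, 11.7, 15.2 and 13.6 CPM in auxin-treated *syp-2::AID* worms, against 3.21, 3.45, 3.46 and 4.31 CPM in untreated ones (log2 fold change 1.92, SE 0.18, adjusted p = 1.98e-06 by edgeR). In N2 worms it was at 16.03, 14.3, 12.5 and 10.8 CPM with auxin, against 6.93, 5.65, 4.43 and 4.14 CPM without (1.34, SE 0.18, adjusted p = 1.08e-04 by edgeR). The treated groups of the strains overlapped each other, and no treated library overlapped an untreated one. *dhs-18* averaged 24.0 ± 4.06 CPM in auxin-treated and 7.91 ± 1.55 CPM in untreated *syp-2::AID* worms, and 21.99 ± 5.85 CPM in auxin-treated and 6.45 ± 1.09 CPM in untreated N2 worms (SD, n = 4 each). Its log2 fold changes were 1.60 and 1.77 (SEs 0.20 and 0.20, adjusted p = 5.16e-05 and 2.84e-05 by edgeR) in *syp-2::AID* and N2 worms.

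*dhs-8* was the lowest of the members that rose. Its 4 libraries were at 3.49, 2.48, 2.32 and 2.29 CPM in auxin-treated *syp-2::AID* worms, against 0.182, 0.785, 0.595 and 0.898 CPM in untreated ones. In N2 worms it was at 1.65, 1.85, 1.25 and 1.71 CPM on auxin plates and at 0.392, 0.471, 0.370 and 0.534 CPM without. The groups did not overlap in either strain, and the log2 fold changes were 2.09 (SE 0.33, adjusted p = 4.42e-04 by edgeR) in *syp-2::AID* and 1.85 (SE 0.36, adjusted p = 0.00387 by edgeR) in N2 worms. As it entered the test only through its auxin libraries, it is no independent addition to the counts above.

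**Figure D3:**
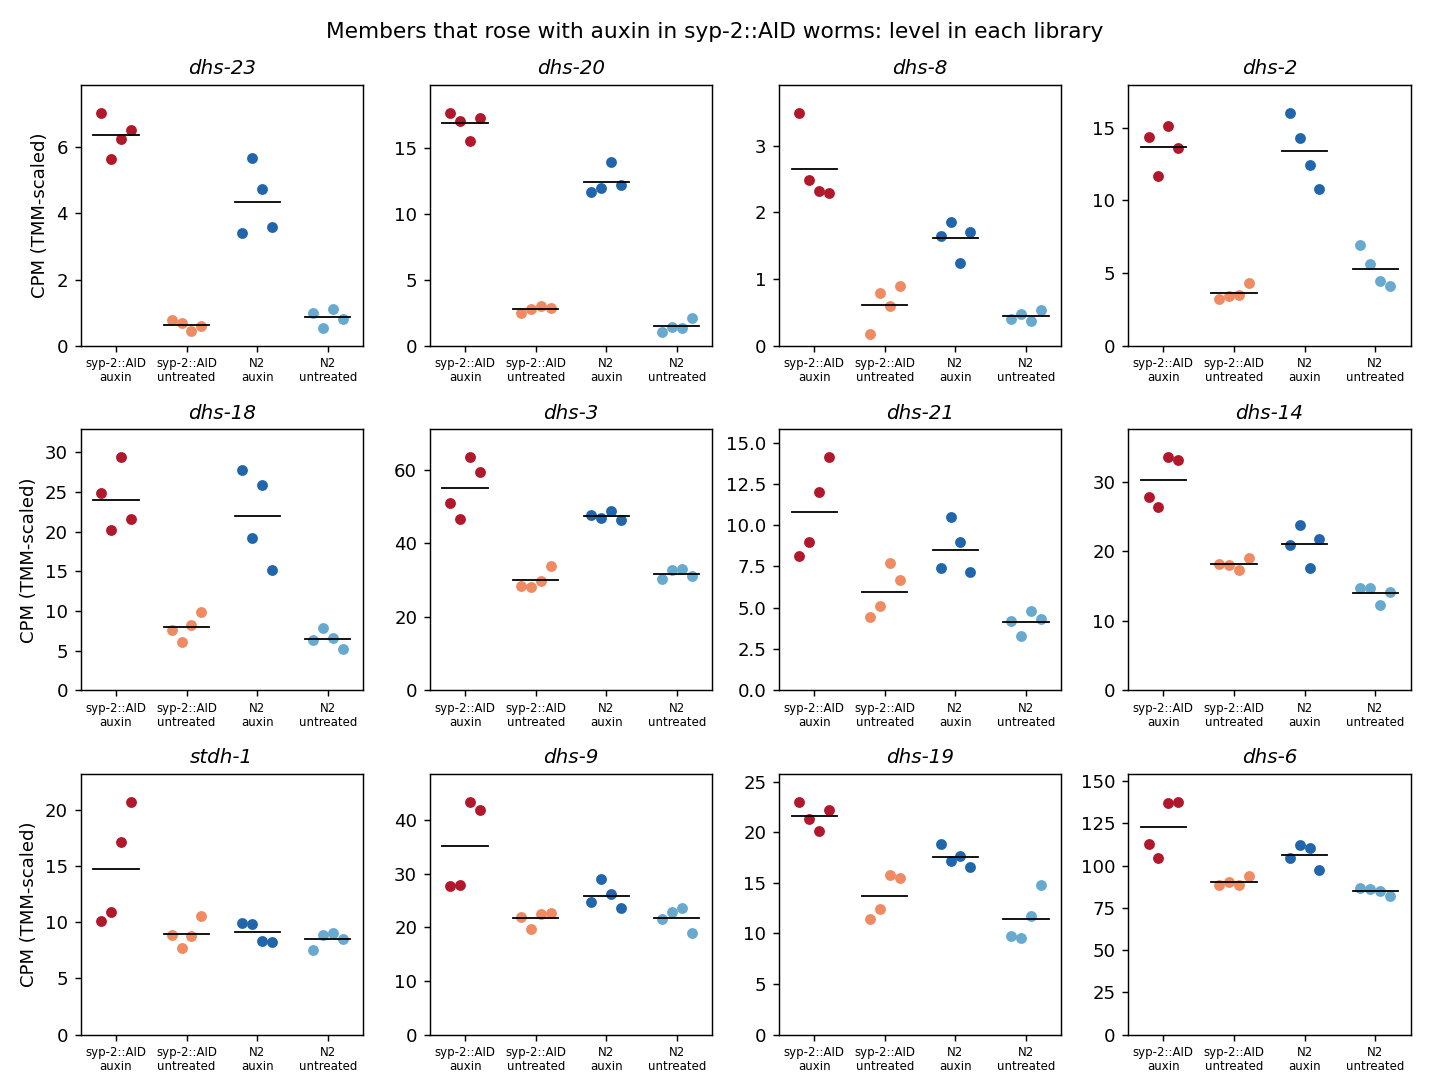
Level of the 12 members that rose in *syp-2::AID* worms, in CPM scaled by TMM (vertical linear axis from 0), in each of the 16 libraries. Points within a group are replicates 1 to 4 from left to right and the line is their mean. *dhs-23*, *dhs-20*, *dhs-8*, *dhs-2* and *dhs-18* separate with and without auxin in both strains. *stdh-1*, *dhs-9*, *dhs-3*, *dhs-6*, *dhs-14* and *dhs-21* are highest in auxin-treated *syp-2::AID* replicates 3 and 4, the libraries that stood apart.

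Among the remaining risers, *dhs-3* and *dhs-21* have well-known products. *dhs-3*, which encodes an abundant protein of intestinal lipid droplets, was at 50.8, 46.5, 63.4 and 59.3 CPM in auxin-treated and at 28.4, 28.1, 29.7 and 33.7 CPM in untreated *syp-2::AID* worms (log2 fold change 0.87, SE 0.10, adjusted p = 1.21e-05 by edgeR). In N2 worms it was at 47.6, 46.8, 48.7 and 46.4 CPM on auxin plates and at 30.1, 32.8, 33.0 and 31.0 CPM without (0.58, SE 0.10, adjusted p = 0.00115 by edgeR). The groups were apart in both strains, and without auxin-treated *syp-2::AID* replicates 3 and 4 the log2 fold change there was 0.70. *dhs-21*, the worm dicarbonyl/L-xylulose reductase, was at 8.13, 8.96, 12.03 and 14.1 CPM in auxin-treated and at 4.42, 5.07, 7.68 and 6.71 CPM in untreated *syp-2::AID* worms (0.85, SE 0.21, adjusted p = 0.0211 by edgeR). Here the highest values were again those of replicates 3 and 4, and without both of them the log2 fold change was 0.52 and did not pass (adjusted p = 0.345 by edgeR). In N2 worms *dhs-21* was at 7.39, 10.5, 8.98 and 7.19 CPM on auxin plates and at 4.18, 3.30, 4.80 and 4.34 CPM without (1.03, SE 0.22, adjusted p = 0.00829 by edgeR). It shares exon sequence on the other strand with R11D1.10, which had 15.3 to 21.8 CPM in the group means and did not pass in either strain.

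The smaller rises were those of *dhs-14*, *dhs-19*, *dhs-6*, *dhs-9* and *stdh-1*. *dhs-14* averaged 30.3 ± 3.65 CPM in auxin-treated and 18.1 ± 0.716 CPM in untreated *syp-2::AID* worms, and 21.01 ± 2.56 CPM in auxin-treated and 13.97 ± 1.16 CPM in untreated N2 worms (log2 fold changes 0.74 and 0.59, adjusted p = 3.52e-04 and 0.00412 by edgeR). *dhs-19* averaged 21.7 ± 1.26 and 13.7 ± 2.18 CPM in auxin-treated and untreated *syp-2::AID* worms and 17.6 ± 0.949 and 11.5 ± 2.42 CPM in auxin-treated and untreated N2 worms (0.66 and 0.62, adjusted p = 0.00747 and 0.0154 by edgeR). Both kept all treated libraries above all untreated ones in each strain. Without auxin-treated *syp-2::AID* replicates 3 and 4 the log2 fold changes in *syp-2::AID* worms were 0.58 for *dhs-14* and 0.69 for *dhs-19*. Both still passed (adjusted p = 0.00407 and 0.0184 by edgeR).

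*dhs-6*, the third most abundant member per kb, averaged 122.9 ± 17.0 and 90.3 ± 2.61 CPM in auxin-treated and untreated *syp-2::AID* worms and 106.1 ± 6.4996 and 85.0 ± 2.05 CPM in auxin-treated and untreated N2 worms (SD, n = 4 each). The log2 fold changes were 0.44 (adjusted p = 0.00372 by edgeR) and 0.32 (adjusted p = 0.0425 by edgeR) in *syp-2::AID* and N2 worms. Without auxin-treated *syp-2::AID* replicates 3 and 4 the value in *syp-2::AID* worms was 0.27 (adjusted p = 0.0245 by edgeR). The call in N2 worms did not pass in 14 of 28 alternatives, including the leaving out of 11 single libraries, with adjusted p from 8.84e-04 to 0.195.

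*dhs-9* and *stdh-1* rose in *syp-2::AID* worms and did not pass in N2 worms. *stdh-1*, of the steroid dehydrogenase group related to *let-767* and human HSD17B12, was at 10.1, 10.9, 17.2 and 20.7 CPM in auxin-treated and at 8.85, 7.74, 8.82 and 10.5 CPM in untreated *syp-2::AID* worms. The groups overlapped (exact permutation test, p = 0.0571), and the high values were in replicates 3 and 4. The log2 fold change was 0.71 (adjusted p = 0.0356 by edgeR), and without these replicates 0.22 (adjusted p = 0.679 by edgeR). In N2 worms *stdh-1* was at 9.12 ± 0.920 CPM on auxin plates and at 8.47 ± 0.677 CPM without (SD, n = 4 each). *dhs-9* was at 27.6, 27.97, 43.4 and 41.8 CPM in auxin-treated and at 21.9, 19.8, 22.4 and 22.8 CPM in untreated *syp-2::AID* worms (0.70, adjusted p = 0.00493 by edgeR). Without replicates 3 and 4 the log2 fold change of *dhs-9* was 0.36 (adjusted p = 0.0748 by edgeR), and in N2 worms it was 0.25 (adjusted p = 0.374 by edgeR). The difference between the strains did not pass for either gene (interaction adjusted p = 0.267 for *dhs-9* and 0.274 for *stdh-1*, by edgeR).

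The third comparison, the difference in auxin response between the strains, asks whether the response with the degron differed from that without it. No member passed edgeR's test of the interaction, in which 0.00849% of all genes rose and 0.00849% fell (1 gene each). At an unadjusted p under 0.05 there were 7 members. The share of all genes at this unadjusted threshold is not given here, so member counts at it have no background. DESeq2 called 131 genes in all and limma-voom 0, and neither called a member. The 7 were *dhs-23*, *dhs-2*, *dhs-11*, *dhs-9*, *dhs-3* and *stdh-1* with a larger fold change in *syp-2::AID* worms, and *dhs-20* with a larger one in N2 worms. *dhs-23* had a difference of 1.00 on the log2 scale (95% interval 0.26 to 1.76, adjusted p = 0.225 by edgeR), and *dhs-20* one of -0.48 (95% interval -0.96 to -0.00070, adjusted p = 0.284 by edgeR). The intervals for *dhs-18* (-0.76 to 0.43), *dhs-14* (-0.19 to 0.49) and *dhs-19* (-0.38 to 0.46) include 0 and differences of up to these sizes. Without auxin-treated *syp-2::AID* replicates 3 and 4 no member passed either, and 2 had an unadjusted p under 0.05. These were *dhs-23* with a difference of 1.00 (adjusted p = 0.517 by edgeR) and *dhs-13* with one of 0.32 (adjusted p = 0.482 by edgeR). The differences of *dhs-9*, *dhs-11*, *dhs-3* and *stdh-1* were then 0.11, 0.08, 0.12 and 0.12.

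The strains were also compared without auxin, to ask whether the degron strain differs on its own, and with auxin. These comparisons use the same libraries as those above, so their values are not independent of them. Without auxin only *dhs-20* passed of the 28 members, at 2.48 to 2.97 CPM in *syp-2::AID* worms and 1.05 to 2.07 CPM in N2 worms (log2 fold change 0.92, SE 0.18, adjusted p = 0.0245 by edgeR). The groups did not overlap, and 0.679% of all genes rose and 0.195% fell in this comparison. Without any 1 of untreated *syp-2::AID* replicates 2, 3 and 4 or untreated N2 replicates 1, 2 and 3 no member passed, with adjusted p for *dhs-20* up to 0.103. Without auxin-treated *syp-2::AID* replicates 3 and 4 6 members passed, of which *dhs-13* fell and *dhs-5*, *dhs-14*, *dhs-20*, *dhs-25* and *dhs-29* rose, while the genes called in all went up as well, to 1511 (12.4%), against 103 with all libraries.

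With auxin only *dhs-14* passed, at 27.9, 26.4, 33.6 and 33.2 CPM in *syp-2::AID* worms and 20.9, 23.8, 17.6 and 21.8 CPM in N2 worms (log2 fold change 0.53, SE 0.11, adjusted p = 0.0357 by edgeR). The background here was 0.671% rising and 0.382% falling. This call was lost in 13 of 28 alternatives, among them those without auxin-treated *syp-2::AID* replicate 3 or 4, untreated *syp-2::AID* replicate 1, 3 or 4, or auxin-treated N2 replicate 1, 3 or 4, where no member passed. Without auxin-treated *syp-2::AID* replicates 3 and 4 no member passed, and *dhs-14* had a log2 fold change of 0.37 (adjusted p = 0.174 by edgeR). The count was 3 without auxin-treated *syp-2::AID* replicate 1 and 6 without replicate 2, where 2027 and 2405 genes in all passed, against 124 with all libraries.

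The other 16 tested members passed in neither strain. Among them were the pair of most abundant ones. *dhs-25* averaged 189.6 ± 11.7 CPM in auxin-treated and 208.5 ± 16.1 CPM in untreated *syp-2::AID* worms (log2 fold change -0.14, 95% interval -0.37 to 0.10), and 155.8 ± 15.9 CPM in auxin-treated and 155.2 ± 28.4 CPM in untreated N2 worms (0.005, 95% interval -0.23 to 0.24). *dhs-22* averaged 161.9 ± 26.99 CPM and 132.6 ± 5.23 CPM in auxin-treated and untreated *syp-2::AID* worms (0.29, adjusted p = 0.101 by edgeR), with 145, 133, 188 and 181 CPM in the treated libraries. Its overlapping neighbour on the other strand, *set-31*, had 22.2 to 27.7 CPM in the group means.

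*dhs-1*, at 54.5 ± 5.94 and 50.2 ± 0.153 CPM in auxin-treated and untreated *syp-2::AID* worms and 52.3 ± 1.19 and 50.6 ± 1.28 CPM in auxin-treated and untreated N2 worms, had 95% intervals of -0.04 to 0.28 and -0.11 to 0.21 for the log2 fold change. *dhs-11* was at 21.98, 20.8, 51.2 and 44.8 CPM in auxin-treated and at 24.2, 23.1, 20.7 and 20.5 CPM in untreated *syp-2::AID* worms. Only replicates 3 and 4, which stood apart, were above the untreated range. The log2 fold change of *dhs-11* was 0.65 (adjusted p = 0.101 by edgeR) with them and -0.05 (adjusted p = 0.968 by edgeR) without. Its exon length of 796 bp is the shortest of the members, and *dhs-14* at 884 bp and *dhs-21* at 905 bp come next.

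*dhs-13* and *dhs-24* were lower in all 4 auxin-treated N2 libraries than in all 4 untreated ones. *dhs-13* averaged 42.1 ± 2.57 CPM with auxin and 53.1 ± 1.48 CPM without (log2 fold change -0.34, adjusted p = 0.0830 by edgeR), and *dhs-24* averaged 28.2 ± 1.38 CPM with auxin and 33.5 ± 3.56 CPM without (-0.25, adjusted p = 0.234 by edgeR). Neither passed with all libraries. *dhs-13* did fall in N2 worms on the 8 N2 libraries alone, without auxin-treated *syp-2::AID* replicate 4, and without both replicates 3 and 4 (-0.34, adjusted p = 0.00832 by edgeR), where 1577 genes in all passed, against 640. In *syp-2::AID* worms the values of *dhs-13* were -0.17 and of *dhs-24* -0.07.

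*dhs-12* shares exon sequence on the same strand with *gst-4*, a glutathione S-transferase gene that rose by 1.70 in *syp-2::AID* and by 2.23 in N2 worms on the log2 scale (adjusted p = 4.55e-05 and 5.75e-06 by edgeR). *dhs-12* itself was at 47.7 ± 4.74 and 43.5 ± 2.03 CPM in auxin-treated and untreated *syp-2::AID* worms and at 42.1 ± 3.09 and 40.1 ± 3.11 CPM in auxin-treated and untreated N2 worms, with log2 fold changes of 0.13 and 0.07 that did not pass. Reads in the shared sequence cannot be told apart.

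The members that the filter removed had few counts. *stdh-2* had 10, 20, 7 and 4 counts in auxin-treated *syp-2::AID* libraries, against 1, 1, 2 and 1 in untreated ones. In N2 worms it had 10, 12, 13 and 10 counts with auxin and 0, 1, 2 and 1 without. No treated library overlapped an untreated one in either strain (exact permutation of CPM, two-sided, p = 0.0286 in each). In a fit with no filter beyond 1 count the log2 fold changes were 3.07 and 3.23 (adjusted p = 0.00404 and 0.00419 by edgeR) in *syp-2::AID* and N2 worms. *stdh-3*, the gene next to *stdh-1*, had 0, 2, 0 and 0 counts in auxin-treated *syp-2::AID* and 1, 0, 2 and 1 counts in auxin-treated N2 libraries and none in the 8 untreated ones. *stdh-4* had no count in any of the 16 libraries, which allows up to 3 counts or 0.157 to 0.222 CPM in each. *dhs-16*, the 3-hydroxysteroid dehydrogenase of dafachronic acid synthesis, had 0 to 6 counts in every library. *dhs-15*, separated from *dhs-14* by 1 coding gene, was at 0.0673 to 1.78 CPM over all libraries, and no difference was detectable at this depth for *dhs-15* and *dhs-16*.

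Summed over the 33 members, the level was 882 to 1059 CPM in auxin-treated and 762 to 801 CPM in untreated *syp-2::AID* worms, and 797 to 872 CPM in auxin-treated and 711 to 739 CPM in untreated N2 worms. *dhs-23*, *dhs-20*, *dhs-8*, *dhs-2* and *dhs-18* together had 57.1 to 68.6 CPM in auxin-treated and 13.8 to 18.5 CPM in untreated *syp-2::AID* worms, and 43.4 to 60.5 CPM in auxin-treated and 12.7 to 15.9 CPM in untreated N2 worms. They were thus a small part of the family's transcripts in every group, at 1.82% to 7.65% of the members' summed CPM per kb. They are the 5 members that rose by more than 2-fold in *syp-2::AID* worms, so their higher sums with auxin there follow from that choice. Auxin-treated *syp-2::AID* replicates 3 and 4 had the highest sums over all members (1051 and 1059 CPM).

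The members with the larger rises were not the abundant ones. To keep the level and the response on different libraries, the response in one strain was set against the untreated level in the other. The response in N2 worms had a Spearman's rho of -0.564 with the level per kb in untreated *syp-2::AID* worms across the 28 members, and -0.554 across the 26 that passed on the untreated libraries alone. The response in *syp-2::AID* worms had a rho of -0.119 with the level in untreated N2 worms, and -0.175 across the 26. These are descriptions across genes that share libraries and scaling. In *syp-2::AID* worms several of the lowest members, such as *dhs-26*, *dhs-4* and *dhs-29*, had negative fold changes that did not pass.

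**Figure D4:**
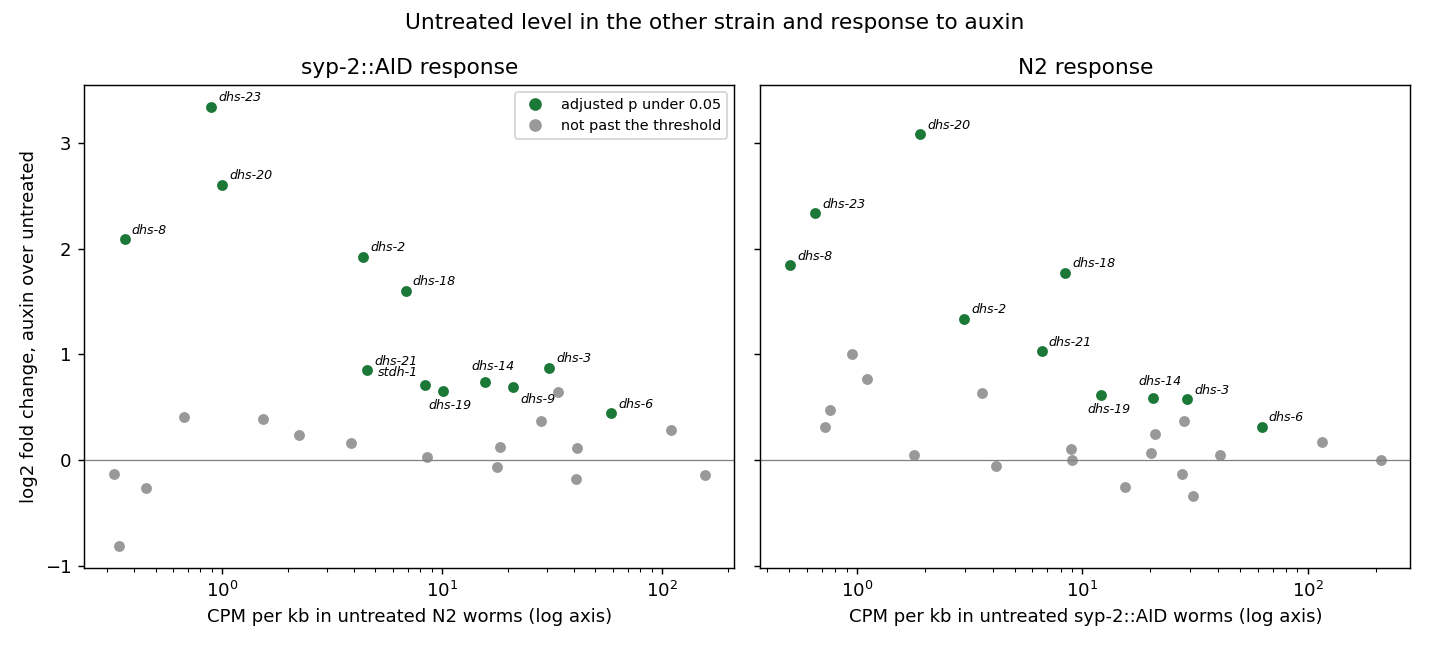
log2 fold change on auxin plates (vertical axis) against the level in the untreated worms of the other strain, in CPM per kb of exon (horizontal log axis), for the 28 tested members in *syp-2::AID* (left) and N2 worms (right). Green points passed at an adjusted p under 0.05. *dhs-23*, *dhs-20* and *dhs-8*, each at most 1.90 CPM per kb without auxin, have the largest fold changes in both panels, and *dhs-25* and *dhs-22*, above 100 CPM per kb, lie between -0.14 and 0.29.

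Intestinal cells express many enzymes of this kind, so marker levels were set beside the rises. The 6 intestine markers summed to 2043 to 2229 CPM in auxin-treated and 2330 to 2803 CPM in untreated *syp-2::AID* worms, and to 1639 to 2257 CPM in auxin-treated and 2424 to 2723 CPM in untreated N2 worms. None of them rose, and 2, asp-1 and act-5, fell in N2 worms, by 0.51 and 0.47 on the log2 scale. Most counts in this sum are those of asp-1, an aspartyl protease gene. The markers did not move together: ges-1, a gut esterase gene, had log2 fold changes of 0.16 in *syp-2::AID* and 0.29 in N2 worms, and elt-2, the gut GATA factor, of -0.09 and 0.32, none of which passed. Counts of elt-2 in auxin-treated *syp-2::AID* replicates 1 to 4 were 177, 155, 87 and 83, against 138 to 157 in untreated ones. Those of vha-6, another of the 6, were 3672, 3262, 2213 and 1817, against 3694 to 4262. Both were thus lowest in replicates 3 and 4, which stood apart. asp-1 differed less, at 24788, 23375, 21479 and 21171 counts. Fold changes of the markers without these replicates are not given here. The median over the 6 was -0.19 in *syp-2::AID* and -0.12 in N2 worms. The part of these markers in the members' results was not tested. None of the germline or oocyte markers rose or fell in either strain.

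Other enzymes of carbonyl and alcohol metabolism were described from lists chosen by name. Of 17 further SDR genes, 16 were in the table and 11 were tested. In *syp-2::AID* worms 2 of the 11 rose, none fell and 9 did not pass. *dhrs-4* averaged 19.01 ± 3.43 CPM in auxin-treated and 6.45 ± 1.01 CPM in untreated worms (log2 fold change 1.56, adjusted p = 6.40e-06 by edgeR), and *sdz-8* averaged 2.96 ± 0.592 CPM and 0.890 ± 0.193 CPM in auxin-treated and untreated worms (1.73, adjusted p = 0.00466 by edgeR). In N2 worms 1 of the 11 rose, *dhrs-4*, by 1.34 on the log2 scale, and none fell. There *sdz-8* averaged 1.43 ± 0.674 CPM in auxin-treated and 0.805 ± 0.391 CPM in untreated worms (0.80, adjusted p = 0.259 by edgeR). Its difference between the strains did not pass (interaction adjusted p = 0.348 by edgeR). Over all genes tested, 5.27% rose in *syp-2::AID* and 3.99% in N2 worms. The median log2 fold change of the 11 was 0.08 in *syp-2::AID* and 0.14 in N2 worms.

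Among 17 aldehyde and alcohol dehydrogenase genes outside the SDR family, 15 were in the table and 14 tested. In *syp-2::AID* worms 3 rose (*alh-5*, *sodh-1* and *sodh-2*), 1 fell (*alh-13*, by 0.67 on the log2 scale) and 10 did not pass. In N2 worms 4 rose (*alh-5*, *sodh-1*, *sodh-2* and *alh-1*) and none fell. Over all genes tested, 5.27% rose and 1.93% fell in *syp-2::AID* worms, and 3.99% rose and 1.44% fell in N2 worms. *sodh-1*, a sorbitol dehydrogenase family gene, averaged 73.1 ± 15.0 CPM in auxin-treated and 19.9 ± 8.28 CPM in untreated *syp-2::AID* worms, and 108.6 ± 17.5 CPM in auxin-treated and 17.7 ± 8.21 CPM in untreated N2 worms. *sodh-2* had 14, 17, 7 and 12 counts in auxin-treated and 0 in all 4 untreated *syp-2::AID* libraries, and 20, 9, 13 and 12 counts in auxin-treated N2 libraries against 0, 0, 0 and 1 in untreated ones. It passed the filter only through auxin libraries, so its calls are no independent addition to these counts.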

How the data were processed

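RNA from 16 whole-worm libraries was sequenced, 4 per group. The authors used bcl2fastq 2.1.7 to write the read files, TopHat2 2.0.11 for alignment to ce10 and featureCounts (Rsubread 1.20.6) for counts per gene. The deposited values are raw counts, not normalised. No annotation or strand setting was given in the sources used here. Counts were tested in R 4.3.3 with edgeR 4.0.16 (quasi-likelihood, robust, TMM) on genes kept by its filter (minimum count 10), with 5 comparisons, a threshold of 0.05 and a biological coefficient of variation of 0.185. Levels are CPM ± SD. Single members were also compared by exact permutation on CPM. Intervals are 95% confidence intervals of the estimated fold change, based on the variation between libraries fitted over all 16. They are not ranges of single libraries. Exon lengths and overlaps came from WBcel235, which held all 33 members and lengths for 10340 of 11776 tested genes. No coordinates are given, as the builds differ. No pair of the 16 libraries was identical.

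The members and lists were chosen with earlier results of these data known. Named were members past the threshold in any comparison, the 5 most abundant per kb in untreated N2 worms, *dhs-3*, *dhs-6*, *dhs-16*, *dhs-21* and *stdh-1* to *stdh-4*, members removed by the filter, and up to 4 genes past the threshold of each other list. Other members were named after their values were seen, as were overlapping genes. Marker lists covered intestine, germline, oocyte, sperm, early embryo, body wall muscle, hypodermis and neuron. No marker rose in any comparison. With auxin 1 muscle marker fell in *syp-2::AID* worms, and 2 intestine markers and 1 hypodermis marker fell in N2 worms. Alternatives were RLE, upper-quartile and no factors, DESeq2 1.42.0, limma-voom (limma 3.58.1), 2 other filters, robust estimation off, a replicate block, the 8 libraries of a comparison alone and each library left out in turn. The test scripts were tested on simulated data.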

Additional observations from a re-analysis of the deposited data

Results flagged for a closer look

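1 of 48 sets of 4 libraries (12 members that passed in any comparison, in 4 groups) held a library far from the others: *dhs-8* was at 3.49 CPM in replicate 1 of auxin-treated *syp-2::AID* worms, against 2.29 to 2.48 CPM in the other replicates. Chance marks about 1 in 20 such sets. The call of *dhs-8* was kept without this library.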

How the results depend on the processing

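The calls with auxin kept their direction under every alternative run, and 16 of 24 calls of single members were never lost, with none reversed in sign. In *syp-2::AID* worms 11 to 16 members passed with 1 library left out and 8 to 13 under the other alternatives. Over all genes 848 passed, against 2756 and 3170 without auxin-treated *syp-2::AID* replicate 1 or 2 (16 members each), 506 to 912 without any other library and 393 on the 8 libraries alone. In N2 worms 9 to 12 and 8 to 14 passed, with 14 where auxin-treated *syp-2::AID* replicates 3 and 4 were both left out. Over all genes 640 passed there, against 417 to 749 with 1 library left out and 1577 without both replicates. Under the remaining alternatives 489 to 1230 genes passed. *stdh-2*, which passes the filter only through auxin libraries, is counted in most fits with 1 library left out. *dhs-6*, *dhs-9*, *dhs-21* and *stdh-1* lost their calls on the 8 *syp-2::AID* libraries alone, and *dhs-8* and *dhs-23* were not tested at 10 counts in every library. *dhs-21* also lost its call in *syp-2::AID* worms without replicate 3 or 4 on auxin, or 1 or 2 off it, and *stdh-1* without these, untreated replicate 3 or auxin-treated N2 replicate 2, and with limma-voom and the replicate block. *dhs-19* lost its call in N2 worms without replicate 1 on auxin, or 1 or 2 off it. The interaction gave 0 members throughout. Between the untreated strains 1 member passed, against 4 with no factors, 5 with DESeq2, 4 with the trend with exon length removed and 6 without auxin-treated *syp-2::AID* replicates 3 and 4, and 0 to 3 with 1 library left out (2 without auxin-treated *syp-2::AID* replicate 4 and 3 without untreated N2 replicate 4). Genes called in all were 103 in the fit used above, 344 with no factors, 570 with DESeq2 and 465 with the trend removed. They were 1511 without both replicates, and 180 and 434 without the single libraries just named. On the 8 untreated libraries alone *dhs-13* fell in place of the rise of *dhs-20*. Between the auxin-treated strains 1 member passed, against 3 with DESeq2, 0 with no filter beyond 1 count, 0 with the replicate block, 0 on the 8 libraries alone, 0 without both replicates 3 and 4 and 0 with the length trend removed, and 0 to 6 with 1 library left out. Genes called in all were 124 in the fit used above and 807 with DESeq2. They were 77 with no filter, 53 with the replicate block and 3 on the 8 libraries alone. Without both replicates 53 passed, and 293 with the trend removed. The cause of these shifts was not tested.

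The replicate block gave 11 members in *syp-2::AID* worms, 9 in N2 worms, 1 between the untreated strains and 0 for the interaction. Genes called in all were then 656, 500, 56 and 0. Deviations of each library's log CPM from its group mean were correlated across genes, not the levels themselves. Over the pairs of groups these deviations correlated at -0.389 to 0.353 between same-numbered libraries. Between differently numbered ones they correlated at -0.465 to 0.514. These values cannot tell whether the numbers pair the samples, and the numbers are used here as names only. Without scaling factors the median log2 fold change of all genes was 0.155 in N2 worms, -0.183 for the interaction and 0.151 between the untreated strains, so directions of small changes depend on the scaling there. Members under about 1 CPM had few counts, which limits what could be detected.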
